A study of Mus musculus with 12 samples.

Results

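The 10 genes described here encode sensors of foreign or misplaced nucleic acids and 2 adaptors that relay their signals. They are *Ddx58*, *Ifih1*, *Dhx58*, *Mavs*, *Zbp1*, *Tmem173*, *Mb21d1*, *Eif2ak2*, *Tlr3* and *Aim2*. They were picked by gene symbol from a table of counts that named 43269 genes, and all 10 were among the 14673 genes with enough counts to be tested. The table came from MC38CEA, a line derived from a mouse colon adenocarcinoma and made to express human carcinoembryonic antigen. All cells had received Cas9 mRNA by electroporation and then guide RNA made in vitro, in 2 rounds, with guides against *Adam17* (*Adam17*-KD cells) or against EGFP (control cells). Edited populations were used whole, without isolation of clones, so *Adam17*-KD cultures could hold cells with and without edited alleles. Cells of each kind were left without cytokines or received IL1β and IFNγ at 10 ng/ml each for 6 h, which gave 4 groups of 3 libraries. It is not stated whether replicates came from separate editing experiments, so p-values measure the spread between these cultures.

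Cells detect viral or mislocalised nucleic acids through a small set of proteins. In the cytosol, RIG-I (*Ddx58*) and MDA5 (*Ifih1*) bind double-stranded RNA and signal through MAVS on mitochondria, whereas LGP2 (*Dhx58*) has the RNA-binding helicase but no signalling domain. The enzyme cGAS (*Mb21d1*) binds DNA and makes a cyclic dinucleotide that activates STING (*Tmem173*). ZBP1 binds Z-form nucleic acids and can start necroptosis, PKR (*Eif2ak2*) binds double-stranded RNA and halts translation, and AIM2 binds DNA and builds an inflammasome. TLR3 is the exception in location, since it reads double-stranded RNA in endosomes. Many of these genes are themselves known targets of interferons.

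Library totals ranged from 13156871 to 25443307 counts. *Adam17*, the targeted gene, was lower in every *Adam17*-KD library, with 49.7 to 57.3 CPM (read counts relative to the scaled total of the library) against 77.0 to 94.4 CPM in unstimulated control cells. With cytokines it stood at 57.1 to 62.4 CPM against 93.8 to 111 CPM. None of 10 epithelial marker genes had enough counts to be tested, with 1 to 25 counts each over all 12 libraries (*Epcam* 4, *Krt18* 3), although the line is labelled as a carcinoma. Of 11 leukocyte markers, 4 were tested and their summed level lay between 4.46 and 9.41 CPM in every library, while *Ptprc* had 8 counts in all and *Cd3e* 0. Of 10 fibroblast and endothelial markers, 5 were tested: *Col1a1*, *Col1a2*, *Dcn*, *Pdgfra* and *Pdgfrb*. The endothelial markers *Pecam1* (24 counts), *Cdh5* (62) and *Kdr* (12) were not, nor were *Lum* (38) and *Thy1* (12). *Col1a2* was by far the highest, at a mean of 138 CPM over all libraries, with *Pdgfrb* next at 21.5 CPM. The summed level of the 5 was 182 to 191 CPM in unstimulated control cells, 278 to 327 CPM in unstimulated *Adam17*-KD cells, 100.4 to 113 CPM in stimulated control cells and 133 to 197 CPM in stimulated *Adam17*-KD cells. It was thus higher in *Adam17*-KD cells in both conditions, and the part of this shift in the results below was not tested. The nuclear noncoding RNA *Malat1* split the libraries within every group. It was high in stimulated control replicate 2 (1500 CPM against 289 and 261 CPM), unstimulated control replicate 2 (1279 CPM against 609 and 432 CPM), unstimulated *Adam17*-KD replicates 1 and 2 (1233 and 1185 CPM against 566 CPM) and stimulated *Adam17*-KD replicate 2 (932 CPM against 474 and 471 CPM).

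To compare levels between genes, CPM were divided by the exonic length of each gene in kb. This length joins all annotated exons, so it can exceed that of the transcripts present, and the order depends on it. Without cytokines, *Mavs* had the highest level per kb of the 10 in control cells, at 19.4 ± 0.18 CPM per kb (SD, n = 3). *Ddx58* followed at 11.4 ± 0.58 CPM per kb, although before division it stood higher (80.2 against 64.9 CPM). *Tmem173* (5.89 ± 0.84) and *Mb21d1* (5.71 ± 0.39) came next with overlapping ranges, then *Eif2ak2* (4.91 ± 0.14), all in CPM per kb. *Dhx58*, *Zbp1*, *Ifih1* and *Aim2* lay between 3.86 and 2.62 CPM per kb, and each overlapped its neighbour in this order. *Tlr3* was lowest, at 1.06 ± 0.23 CPM per kb. After 6 h with cytokines the order was different. *Zbp1* stood at rank 7 in control cells and rank 3 in *Adam17*-KD cells without cytokines and at rank 1 in both with cytokines, where it reached 183 ± 17.1 CPM per kb in control cells and 258 ± 41.9 CPM per kb in *Adam17*-KD cells. *Ddx58* remained at rank 2 in every group, *Mavs* stood at rank 5 in stimulated control cells and rank 6 in stimulated *Adam17*-KD cells, and *Aim2* was lowest in both stimulated groups at 2.97 and 3.23 CPM per kb. Since these are bulk cultures, more RNA per cell and more cells with a given transcript cannot be told apart.

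**Figure D1:**
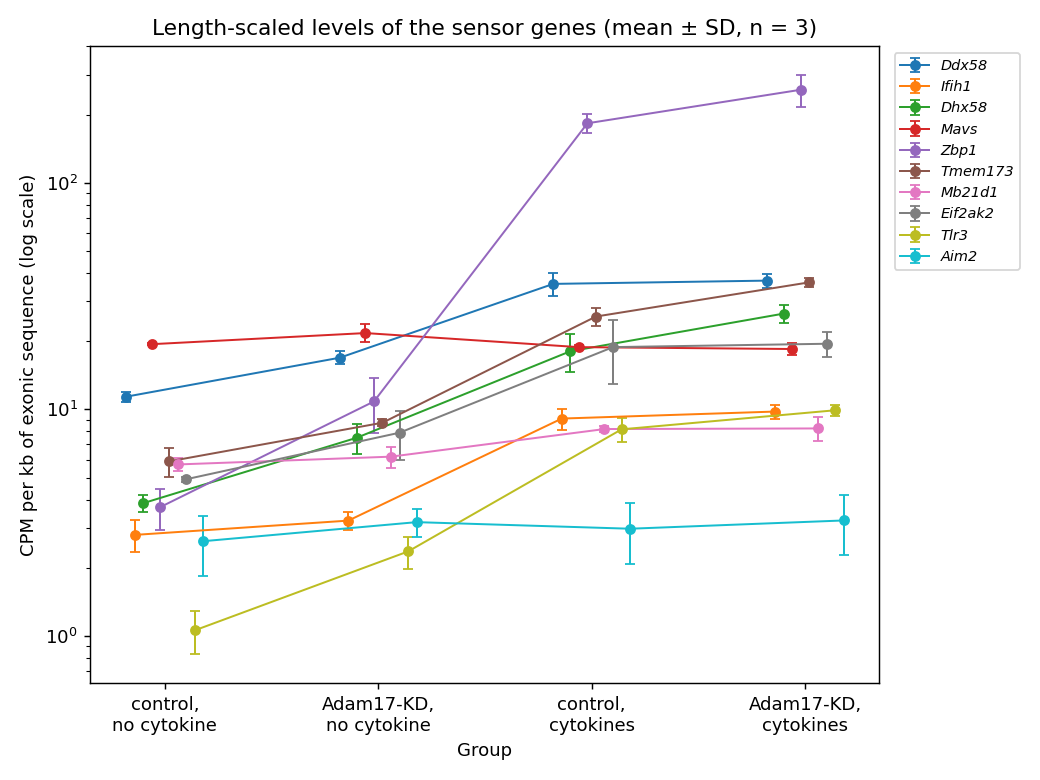
Length-scaled level of each of the 10 genes (CPM per kb of exonic sequence, log scale) in the 4 groups, as mean ± SD over 3 libraries, with lines joining the groups of a gene. *Zbp1* runs from 3.71 CPM per kb in unstimulated control cells to 258 CPM per kb in stimulated *Adam17*-KD cells, whereas *Mavs* and *Aim2* stay nearly level.

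The first comparison asked whether editing of *Adam17* changed the sensor genes in resting cells. Of the 10 genes, 4 were higher in *Adam17*-KD cells (*Zbp1*, *Tlr3*, *Dhx58* and *Ddx58*) and none was lower, at an adjusted p under 0.05 in edgeR's quasi-likelihood test with Benjamini-Hochberg adjustment over all genes. Over all 14673 genes, 0.470% were called in this contrast, 0.429% as higher. In 7 of the 10 genes every *Adam17*-KD library lay above every control library, where 8.38% of all genes did so. The log2 fold change was above 0 for all 10 genes, with a median of 0.57 against -0.01 over all genes tested.

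*Zbp1* had 15.8, 10.4 and 13.01 CPM in the 3 control libraries and 34.6, 50.1 and 30.02 CPM in the *Adam17*-KD libraries (replicates 1, 2 and 3 in this and the following lists). The lowest *Adam17*-KD library therefore stood well above the highest control library. The log2 fold change was 1.54 ± 0.21 (SE), a 2.91-fold difference (adjusted p = 0.00684, edgeR). *Tlr3*, the endosomal receptor for double-stranded RNA, had 5.50, 4.33 and 6.70 CPM in control cells and 12.8, 13.9 and 10.1 CPM in *Adam17*-KD cells. These groups did not overlap either, and the level was 2.22-fold higher in *Adam17*-KD cells (log2 fold change 1.15 ± 0.18, adjusted p = 0.0136, edgeR).

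Among the RIG-I-like receptors, the difference was largest for *Dhx58*. It had 13.5, 11.5 and 12.9 CPM in control cells and 21.3, 28.5 and 23.8 CPM in *Adam17*-KD cells, a 1.94-fold difference (log2 fold change 0.96 ± 0.16, adjusted p = 0.0173, edgeR). *Ddx58* was more abundant and differed less, with 78.5, 84.9 and 77.3 CPM in control cells against 118, 127 and 112 CPM. The groups did not overlap, and the fold difference was 1.49 (log2 fold change 0.57 ± 0.11, adjusted p = 0.0483, edgeR). *Ifih1*, the gene of the related receptor MDA5, had 20.8, 27.0 and 20.7 CPM in control cells and 29.1, 25.6 and 24.4 CPM in *Adam17*-KD cells. Here the groups overlapped and the difference was not called (log2 fold change 0.21, 95% interval -0.09 to 0.51). The shared adaptor gene *Mavs* was measured at 64.4, 64.6 and 65.6 CPM against 73.2, 79.0 and 65.8 CPM. The *Adam17*-KD libraries lay higher, the last by a narrow margin, but the test did not call the difference (log2 fold change 0.16, 95% interval -0.06 to 0.39).

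On the DNA-sensing side, the gene of the adaptor STING differed in value but not in call. *Tmem173* had 16.0, 13.9 and 18.5 CPM in control cells and 23.1, 24.9 and 23.8 CPM in *Adam17*-KD cells (log2 fold change 0.57 ± 0.13, adjusted p = 0.0794, edgeR). Between same-numbered unstimulated libraries of both cell kinds, deviations from group means correlated at r = 0.22, 0.28 and 0.46. Libraries with different numbers in different groups had r from -0.56 to 0.40, so 0.22 and 0.28 lay within that range. Both sets of values are tied, since the deviations of a group cancel out over its replicates. With the replicate number as a block, *Tmem173* passed the threshold (adjusted p = 0.0487, edgeR). That fit called 5 of the 10 genes and 0.886% of all genes. For *Mb21d1*, which encodes the DNA sensor upstream of STING, the libraries read 25.04, 21.8 and 23.8 CPM against 28.5, 24.8 and 23.2 CPM. These groups overlapped (log2 fold change 0.11, 95% interval -0.17 to 0.39).

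*Eif2ak2* and *Aim2* were not called. *Eif2ak2*, the gene of the kinase PKR, had 24.96, 25.9 and 24.5 CPM in control cells and a wide spread of 49.9, 40.7 and 30.4 CPM in *Adam17*-KD cells. All 3 *Adam17*-KD libraries lay above the control libraries, and the log2 fold change was 0.68 ± 0.21 (adjusted p = 0.300, edgeR). *Aim2* had 8.57, 12.1 and 6.78 CPM against 9.37, 12.4 and 11.6 CPM, with overlapping groups (log2 fold change 0.28, 95% interval -0.32 to 0.88). In unstimulated *Adam17*-KD cells, replicates 1 and 2, which were rich in *Malat1*, held the higher values of *Zbp1* and *Eif2ak2*, and in unstimulated control cells replicate 2, rich in *Malat1*, held the lowest value of *Zbp1* and the highest of *Eif2ak2*. The part of *Malat1* level in these differences was not tested.

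The calls in resting cells depended on single libraries, and so did the calls over all genes. With all 12 libraries 0.470% of genes were called. The share was 0.134%, 0.0940% and 0.114% without unstimulated control replicates 1, 2 and 3. It was 0.221%, 0.0670% and 0.497% without unstimulated *Adam17*-KD replicates 1, 2 and 3. *Zbp1* was called in every fit that left out 1 of the 12 libraries, but it was the only gene called without unstimulated control replicate 1, control replicate 2 or *Adam17*-KD replicate 2. Without unstimulated control replicate 3 the calls were *Zbp1* and *Tlr3*, and without unstimulated *Adam17*-KD replicate 1 they were *Zbp1* and *Dhx58*. *Ddx58*, closest to the threshold, was called in 2 of these 12 fits, those without stimulated control replicate 1 or 2.

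**Figure D2:**
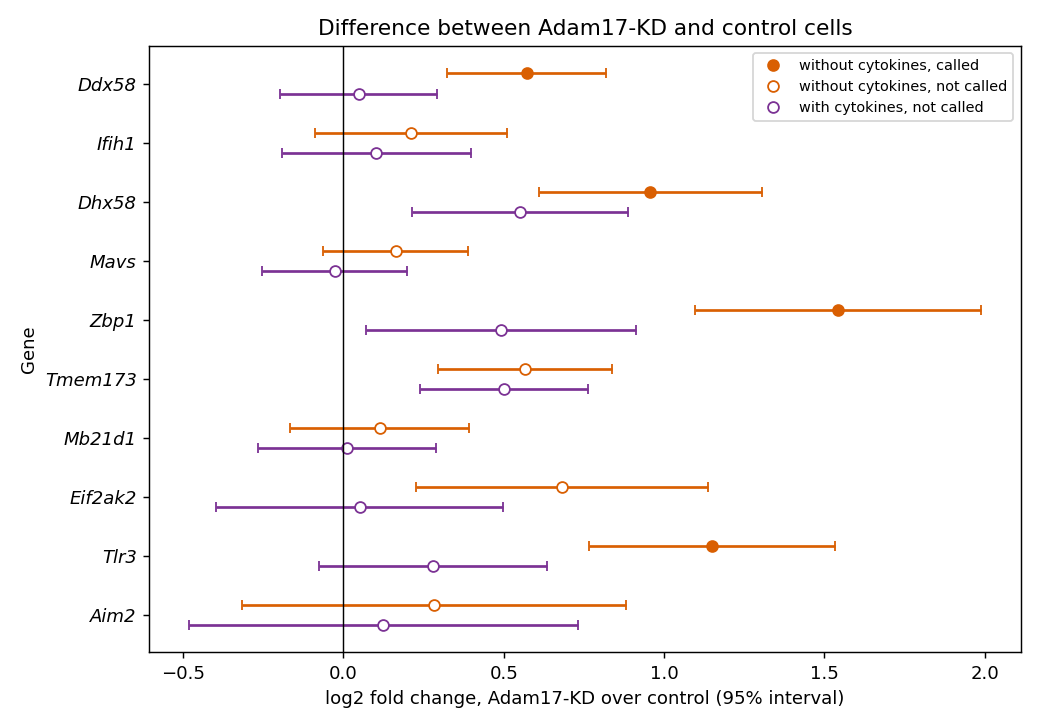
Log2 fold change of *Adam17*-KD over control cells for each gene, without cytokines (orange) and with cytokines (purple), where bars are 95% intervals and filled points are called at an adjusted p under 0.05. Without cytokines 4 points are filled and all 10 lie right of 0, and with cytokines no point is filled.

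The same comparison was made in cells that had received both cytokines. None of the 10 genes was called, where 0.0341% of all genes were. At an unadjusted p under 0.05 there were 3 (*Tmem173*, *Dhx58* and *Zbp1*), where 4.61% of all genes were. DESeq2 called 1, *Tmem173* (adjusted p = 0.0195), and 0.504% of all genes. In 4 genes the groups did not overlap and *Adam17*-KD cells were higher, where 4.83% of all genes were. The median log2 fold change of the 10 genes was 0.11 against 0.01 over all genes.

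The 4 genes without overlap were *Dhx58*, *Tmem173*, *Zbp1* and *Tlr3*. *Tmem173* had 70.1, 64.4 and 76.7 CPM in stimulated control cells and 95.1, 104 and 99.99 CPM in stimulated *Adam17*-KD cells. Its log2 fold change of 0.50 ± 0.12 was close to the 0.57 measured without cytokines (adjusted p = 0.262, edgeR). *Dhx58* had 65.8, 46.3 and 65.1 CPM against 87.4, 94.3 and 78.2 CPM (log2 fold change 0.55 ± 0.16, adjusted p = 0.462, edgeR). *Zbp1* had 646, 707 and 586 CPM against 752, 1046 and 928 CPM (log2 fold change 0.49 ± 0.20, adjusted p = 0.902, edgeR). The highest control library and the lowest *Adam17*-KD library of *Zbp1* were thus close to each other. *Tlr3* had 37.7, 41.9 and 48.0 CPM against 52.5, 48.3 and 54.0 CPM, a log2 fold change of 0.28 with a 95% interval of -0.08 to 0.63.

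The other 6 genes had overlapping groups. *Ddx58* had 223, 279 and 255 CPM in control cells and 239, 273 and 271 CPM in *Adam17*-KD cells, a log2 fold change of 0.05 with a 95% interval of -0.20 to 0.29. *Eif2ak2* had 73.3, 130 and 85.1 CPM against 85.9, 103 and 110 CPM, and its log2 fold change of 0.05 was 0.33 without stimulated control replicate 2. That library held the highest *Eif2ak2* and the highest *Malat1* value of all 12. *Ifih1*, *Mavs*, *Mb21d1* and *Aim2* had log2 fold changes of 0.10, -0.03, 0.01 and 0.12.

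Averaged over both conditions, the *Adam17*-KD effect was called for 4 genes, all higher, where 1.24% of all genes were called and 1.06% were higher. They were *Zbp1* (log2 fold change 1.02 ± 0.14, adjusted p = 0.00362, edgeR), *Dhx58* (0.75 ± 0.11, adjusted p = 0.00524, edgeR), *Tmem173* (0.53 ± 0.09, adjusted p = 0.00897, edgeR) and *Tlr3* (0.71 ± 0.12, adjusted p = 0.0104, edgeR). *Ddx58* was not called (0.31 ± 0.08, adjusted p = 0.0975, edgeR), and with the replicate block it was (adjusted p = 0.0369, edgeR). The call for *Tlr3* ended without unstimulated *Adam17*-KD replicate 2 (adjusted p = 0.0554, edgeR). The summed level of the tested fibroblast markers, mostly *Col1a2*, was also higher in *Adam17*-KD cells, and its part in these values was not tested. Leukocyte markers overlapped between the cell kinds and stayed below 9.41 CPM in sum.

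**Figure D3:**
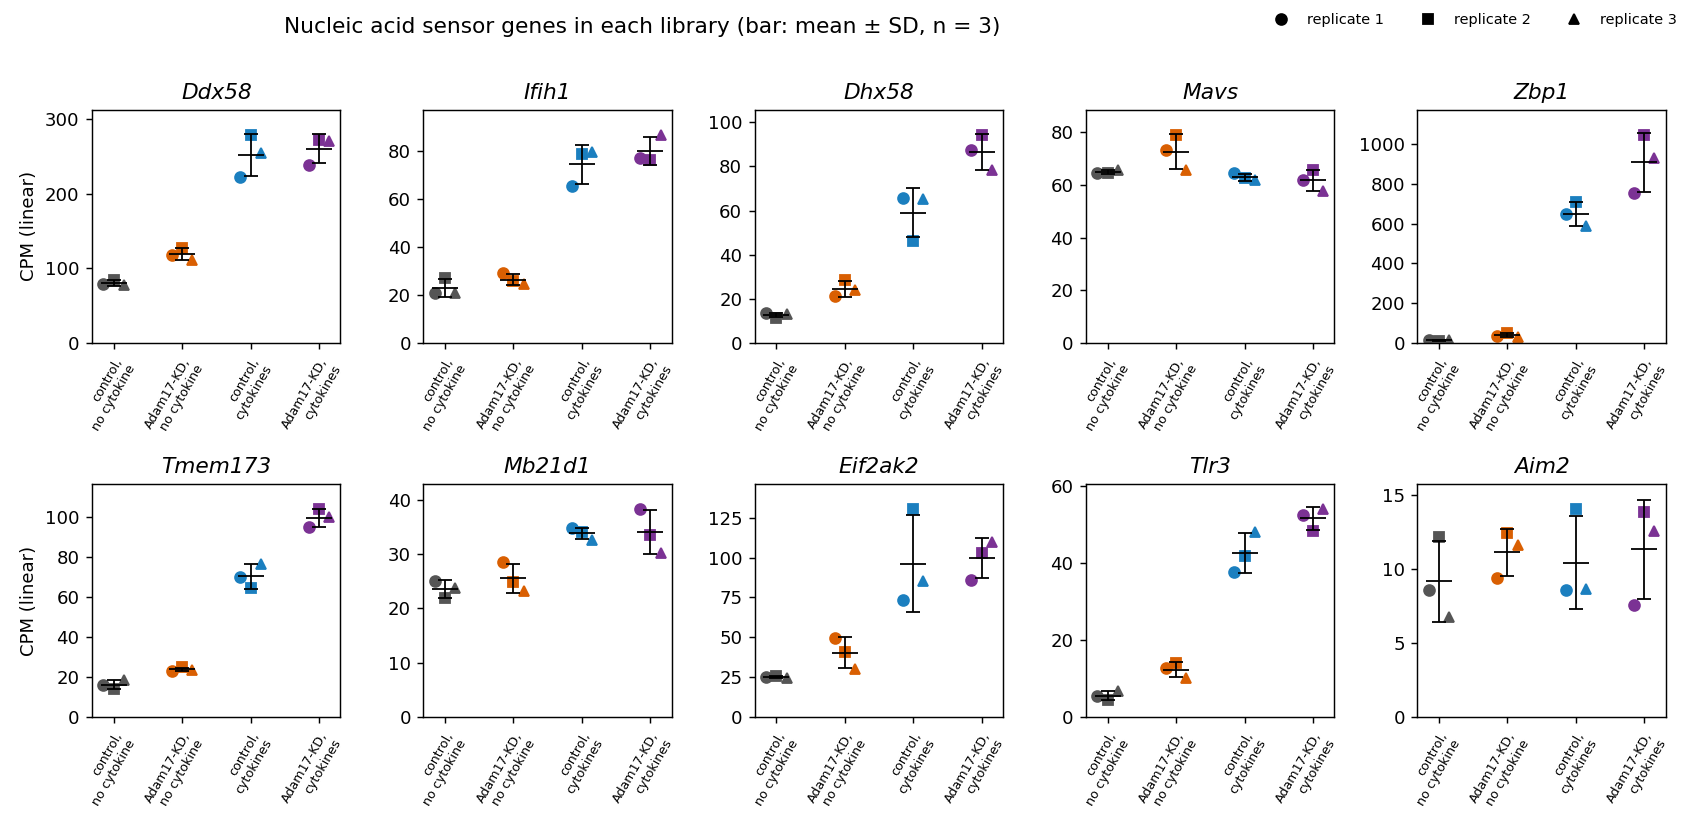
Level of each gene in every library (CPM, linear axis from 0, scaled per gene), with marker shape for the replicate number and bars for mean ± SD (n = 3). In 8 panels, all but *Mavs* and *Aim2*, both stimulated groups stand above both unstimulated groups, and *Eif2ak2* has 1 stimulated control library at 130 CPM.

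IL1β and IFNγ raised most of the sensor genes. In control cells 8 of the 10 were higher after 6 h (all but *Mavs* and *Aim2*) and none was lower, where 6.81% of all genes were called and 5.75% were higher. The same 8 had groups that did not overlap, where 11.0% of all genes lay higher without overlap. The median log2 fold change of the 10 genes was 1.82 against -0.03 over all genes. The summed level of the tested fibroblast markers, mostly *Col1a2*, was lower with cytokines in both cell kinds, and its part in these values was not tested.

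*Zbp1* had by far the largest response, from a mean of 13.1 ± 2.70 CPM to 646 ± 60.4 CPM (SD, n = 3), which was 49.2-fold (log2 fold change 5.62 ± 0.24, adjusted p = 1.66e-09, edgeR). *Tlr3* came next, from 5.51 ± 1.18 to 42.5 ± 5.18 CPM, or 7.69-fold (log2 fold change 2.94 ± 0.18). The RIG-I-like receptor genes rose by less. *Dhx58* went from 12.6 ± 1.04 to 59.1 ± 11.1 CPM (4.68-fold), *Ifih1* from 22.8 ± 3.60 to 74.4 ± 8.001 CPM (3.26-fold) and *Ddx58* from 80.2 ± 4.07 to 252 ± 28.3 CPM (3.15-fold). Their adaptor gene *Mavs* stayed at 64.4, 62.6 and 61.9 CPM, within 0.27 of no change on the log2 scale (95% interval -0.27 to 0.18).

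The DNA-sensing pair responded unequally. *Tmem173* rose from 16.2 ± 2.32 to 70.4 ± 6.18 CPM, or 4.35-fold (log2 fold change 2.12 ± 0.13). *Mb21d1* had 34.8, 34.0 and 32.6 CPM with cytokines against 21.8 to 25.04 CPM without, or 1.43-fold (log2 fold change 0.52 ± 0.13, adjusted p = 0.0247, edgeR). That call was lost in 4 of the fits that left out 1 library, namely without unstimulated control replicate 2 or 3 or stimulated control replicate 1 or 3, where the highest adjusted p was 0.0972 (edgeR). *Eif2ak2* rose 3.83-fold, from 25.1 ± 0.72 to 96.3 ± 30.1 CPM. *Aim2* had 8.56, 14.03 and 8.63 CPM with cytokines, which overlapped the unstimulated libraries (log2 fold change 0.18, 95% interval -0.42 to 0.78).

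In *Adam17*-KD cells 7 of the 10 genes rose and none fell, where 7.90% of all genes were called and 6.37% were higher. The 7 were those of control cells without *Mb21d1*. *Zbp1* rose 23.8-fold, from 38.2 ± 10.5 to 909 ± 148 CPM (log2 fold change 4.57 ± 0.23, adjusted p = 9.32e-09, edgeR). *Tlr3* rose 4.20-fold, *Tmem173* 4.17-fold, *Dhx58* 3.53-fold, *Ifih1* 3.03-fold, *Eif2ak2* 2.47-fold and *Ddx58* 2.19-fold. *Mb21d1* had 28.5, 24.8 and 23.2 CPM without and 38.3, 33.5 and 30.2 CPM with cytokines. Its groups did not overlap and its log2 fold change was 0.42 ± 0.13 (adjusted p = 0.0760, edgeR), so the call differed from that in control cells, while the difference between both responses was -0.10 with a 95% interval of -0.50 to 0.29. *Mavs* was lower without overlap, at 61.8, 65.7 and 57.8 CPM after 73.2, 79.0 and 65.8 CPM, but was not called (log2 fold change -0.23 ± 0.10, adjusted p = 0.276, edgeR). Among all genes, 10.2% lay lower without overlap and 14.1% lay higher, as 8 of the 10 genes here did. *Aim2* had 7.55, 13.8 and 12.6 CPM with cytokines and overlapped the unstimulated libraries. Replicate 2 held the highest *Aim2* value in each of the 4 groups.

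**Figure D4:**
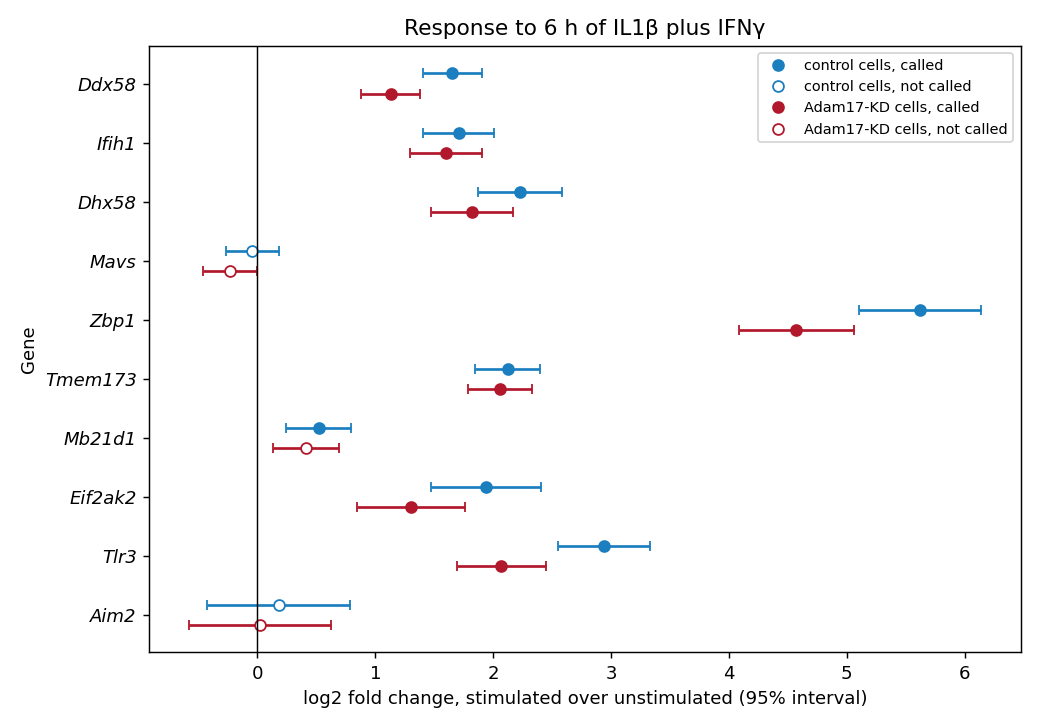
Log2 fold change of stimulated over unstimulated cells for each gene in control (blue) and *Adam17*-KD cells (red), where bars are 95% intervals and filled points are called at an adjusted p under 0.05. *Zbp1* lies at 5.62 and 4.57, *Mavs* and *Aim2* lie close to 0, and each red point lies left of the blue point of its gene.

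Whether the cytokine response differed between the cell kinds was tested as the difference of both responses. No sensor gene was called (0 of 10), and 0 of the 14673 genes were (0%). All 10 differences were below 0, that is, the response was smaller in *Adam17*-KD cells by value, with a median of -0.30 on the log2 scale against 0.02 over all genes. This contrast uses the same unstimulated libraries of both cell kinds as the first comparison, so the sign here is not a separate observation. At an unadjusted p under 0.05 in the edgeR fit there were 3 of the 10 genes, where 1.51% of all genes were, and DESeq2 called none of the 10 and 0.00682% of all genes. The 3 were *Zbp1*, with a difference of -1.05 ± 0.28, *Tlr3* with -0.87 ± 0.24 and *Ddx58* with -0.52 ± 0.16. Their adjusted p in edgeR was 1.00 each. *Eif2ak2* had a difference of -0.63 with a 95% interval of -1.27 to 0.01. For *Tmem173* the difference was -0.06 with a 95% interval of -0.44 to 0.31, and for *Ifih1* it was -0.11 with an interval of -0.53 to 0.31.

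The promoters of 7 of the 10 genes could be read from RefSeq (build GRCm38.p6, 250 bases before to 50 after the start). No promoter was matched for *Zbp1*, *Dhx58* and *Tmem173*, which rose 49.2-fold, 4.68-fold and 4.35-fold in control cells, so these were not examined. The 7 windows were searched on both strands for the core of the interferon-stimulated response element (GAAA, any 2 bases, GAAA) and for a shorter IRF core (AANNGAAA). Every match of the longer core contains the shorter one. The other cores searched were GAS (TTCNNNGAA), the gamma-activated sequence known from IFNγ targets, and κB (GGGA and CC with any 4 bases between), known to be bound by NF-κB after IL1β. The motifs were chosen with the responses known. The ISRE core was present in *Ddx58*, *Ifih1* and *Eif2ak2*, in each case downstream of the start, and in 3.44% of all 32851 promoter windows. The IRF core alone was found 52 to 59 bases before the start of *Ddx58* and *Tlr3*. It is common, with 21.3% of all windows holding it in the 250 bases before the start and 23.9% in the whole window. These shares include IRF cores within an ISRE core. The matches of these 2 cores are shown for the 4 genes that held them. Capitals mark the matched letters, and each run is read 5′ to 3′ on the strand of the gene.
*Ddx58* (chr4:40239852-40239909, minus strand, IRF core): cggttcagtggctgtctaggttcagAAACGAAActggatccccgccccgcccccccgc
*Ddx58* (chr4:40239804-40239833, minus strand, ISRE core): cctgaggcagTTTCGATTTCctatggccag
*Ifih1* (chr2:62646206-62646235, minus strand, ISRE core with both IRF cores): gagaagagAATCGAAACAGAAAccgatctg
*Eif2ak2* (chr17:78882535-78882564, minus strand, ISRE core): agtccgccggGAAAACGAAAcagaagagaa
*Tlr3* (chr8:45410407-45410464, minus strand, IRF core): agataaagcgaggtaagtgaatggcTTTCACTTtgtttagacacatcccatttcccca

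In *Ddx58* and *Tlr3* the runs TTTCGATTTC and TTTCACTT hold the core on the opposite strand. The GAS core was found in *Eif2ak2* alone, where 8.3% of all windows hold it, and the κB core in *Mb21d1*, *Eif2ak2* and *Tlr3*, where 20.7% do. Neither the *Mavs* nor the *Aim2* window held any of the 4 cores. The share of all windows without any of them was not counted, so no link to the responses can be drawn. *Mb21d1* had the κB core but neither the ISRE nor the IRF core. The *Tlr3* and *Aim2* windows lay inside these genes as bounded in the annotation used for exonic lengths. Results for both thus hold for the RefSeq start alone. A match is a description of the letters in the window and does not show that a factor binds there.

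Other genes of these pathways were taken from 9 lists with 112 genes, of which 92 had enough counts. Without cytokines, 2 of the 92 were higher in *Adam17*-KD cells and none was lower, where 0.429% of all genes were higher. *Irf7*, a transcription factor of interferon induction, went from 14.3 ± 2.38 to 27.1 ± 1.94 CPM (log2 fold change 0.92, adjusted p = 0.0149, edgeR), and *Casp1*, the protease of inflammasomes, from 0.628 ± 0.149 to 2.11 ± 0.466 CPM (log2 fold change 1.72, adjusted p = 0.0365, edgeR). With the replicate block 5 of the 92 were called, where 0.886% of all genes were. Without unstimulated control replicate 1 or 2 or *Adam17*-KD replicate 2 there was no call, without stimulated control replicate 2 there were 4, and in 6 of the other fits with 1 library left out there was 1. Over all genes the fits without a call had 0.134%, 0.0940% and 0.0670% called, and the fit with 4 had 0.844%. The 6 fits with 1 call had 0.114% to 0.497% of all genes called. With cytokines none of the 92 was called by edgeR and 2 by DESeq2, where 0.0341% and 0.504% of all genes were. Averaged over conditions there were 4, all higher: *Casp1*, *Irf7*, the nucleotide hydrolase *Samhd1* and the HIN-200 gene *Mndal*. Of all genes 1.06% were higher in this contrast. Without stimulated control replicate 2, 8 of the 92 were called, the same number as with the replicate block. Those fits called 1.57% and 2.06% of all genes.

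Cytokines raised 30 of the 92 pathway genes and lowered none in control cells, and likewise 30 and none in *Adam17*-KD cells, where 5.75% and 6.37% of all genes were higher. The list around AIM2, of inflammasome and HIN-200 genes, had 10 of 10 tested genes higher in both cell kinds, with a median log2 fold change of 3.43 in control cells, although *Aim2* itself was not called. Its members with the smallest adjusted p were *Mndal* (log2 fold change 4.09), *Ifi205* (4.89), *Ifi203* (4.68) and *Casp4* (2.79) in control cells, whereas *Pycard*, the inflammasome adaptor, had too few counts to be tested. Among cofactors and regulators of RIG-I-like receptors 6 of 20 rose, among them the helicase *Ddx60* (log2 fold change 2.61) and the ubiquitin ligase *Trim25* (1.31). Of the necroptosis partners of ZBP1 2 of 6 rose. These were *Mlkl*, the executor of necroptosis (96.0 ± 9.11 to 307 ± 12.5 CPM), and *Ripk1* (36.1 ± 3.10 to 69.8 ± 11.5 CPM). The kinase gene *Ripk3*, through which ZBP1 is known to signal, was low in all groups, at means of 0.905 to 1.28 CPM. The kinase and transcription factor list had 4 of 13 higher, with *Irf7* from 14.3 to 91.8 CPM, while *Irf3* had means of 57.1 to 67.8 CPM in all groups.

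Over all genes, 5.75% were higher with cytokines in control cells. Of the lists on the remaining branches, 2 of 13 STING regulators rose in control cells (*Ifi204* and *Trim56*), 1 of 9 PKR cofactors and eIF2α kinases (*Eif2ak1*), 1 of 8 genes of nucleic acid TLR signalling (*Myd88*) and 4 of 13 nucleases and editors. Among the last, *Samhd1* went from 87.5 ± 6.02 to 836 ± 41.1 CPM, and *Adar*, the editor of double-stranded RNA, from 119 ± 15.2 to 192 ± 12.5 CPM. In *Adam17*-KD cells each of these lists had the same number of genes called as in control cells. *Ticam1*, the adaptor of TLR3, stayed at means of 21.5 to 22.5 CPM in all 4 groups. The interferon genes that these sensors are known to induce were close to absent. None of 10 type I and III interferon genes could be tested, and *Ifnb1* had 5 counts over the 3 unstimulated control libraries, 6 in unstimulated *Adam17*-KD cells, 19 in stimulated control cells and 18 in stimulated *Adam17*-KD cells.

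Genes with a pattern most like each sensor were taken as those with the highest Pearson correlation of log2 CPM over the 12 libraries, among 10538 genes. Since the 12 libraries share 4 groups, these values mostly follow the group means. For *Zbp1* they were *Iigp1*, *Gbp6* and *Oasl2* (r = 0.998, 0.998 and 0.997), for *Ddx58* they were *Slfn8*, *Gbp7* and *Gbp6* (r = 0.997, 0.994 and 0.994) and for *Tlr3* they were *Parp9*, *Ifit3b* and *Ifit3* (r = 0.993, 0.993 and 0.992). *Dhx58* and *Tmem173* both had *Usp18* among their closest genes (r = 0.994 and 0.994), next to *C1ra* and *H2-T22* for *Dhx58* and *Nod1* and *Psmb9* for *Tmem173*. *Ifih1* was closest to *Trim30c*, *Fas* and *Greb1l*, and *Eif2ak2* to *Etnk1*, *Slfn9* and *Ablim1*. *Mb21d1* (*Abhd3*, *Mapk11* and *Zc3h12a*), *Aim2* (*Tmem167b*, *Ezh1* and *Ccdc55*) and *Mavs* (*Arhgef40*, *Hdac6* and *Slc25a51*) had lower best values of 0.951, 0.948 and 0.917. For *Aim2* the correlation with *Tmem167b* was as high within groups (r = 0.948), that is, it followed differences between replicates rather than between groups. Genes of near-identical families such as *Gbp* and *Ifit* are uncertain as single genes, since the treatment of reads that map to several genes is not stated.

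Some of the 10 genes share exonic sequence with a gene on the opposite strand. The shared length was 141 bases for *Dhx58* (with *Dhx58os*), 201 for *Mb21d1* (with *Gm8093*), 174 and 47 for *Eif2ak2* (with *Gm26637* and the rRNA gene *n-R5s29*) and 381 for *Tlr3* (with *Gm45542*). Whether counting used the strand is not stated, so reads from these stretches cannot be told apart.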

How the data were processed

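Poly(A)+ RNA of 12 cultures was sequenced with the Ion Total RNA-Seq kit, and the labels give the build mm10. The aligner, counter and annotation are not given in the sources used here. The authors deposited whole-number read counts per gene, not normalised. Of its lines, 1 repeats the sample names and 2 carry dates as names (0.00808% of counts), and these were left out. The authors' own comparisons (means, log2 fold changes, p-values) were not used.

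Genes were kept by filterByExpr and libraries scaled by TMM in edgeR 4.0.16 (R 4.3.3). A quasi-likelihood model with 4 group means used all 12 libraries and gave 6 contrasts, with Benjamini-Hochberg adjustment over 14673 genes and calls at an adjusted p under 0.05. CPM are counts relative to the scaled library total, as edgeR defines them. Lengths are GENCODE vM21 exonic bases, joined over all annotated transcripts of a gene. The script was tested on simulated data.

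The main fit did not use the replicate numbers in any contrast. As a rule for pairing, deviations from group means of same-numbered libraries had to correlate above 0.1 for all 3 numbers. This held without cytokines (r = 0.22, 0.28 and 0.46) and for the response of control cells (r = 0.13, 0.44 and 0.49), not for the other contrasts. Libraries with different numbers in different groups had r from -0.56 to 0.40, with a mean of -0.09. These values are tied to those of same-numbered libraries, since the deviations of a group cancel out over its replicates. The rule therefore does not establish whether the libraries were paired. The 10 genes, lists and tests were chosen with earlier results of these data known. All 10 genes were reported in every contrast, with up to 4 called genes per list and contrast (smallest adjusted p) and up to 3 similar genes per member, predicted genes left out.

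Alternatives were DESeq2 1.42.0, RLE scaling, omission of the filter or a minimum mean of 50 counts, limma-voom (limma 3.58.1), a replicate block, a fit to only the groups compared, and each library left out in turn.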

Additional observations from a re-analysis of the deposited data

How the results depend on the processing

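Of 1120 log2 fold changes of the 10 genes recomputed under other settings, 1058 had the same direction and side of the threshold, 28 lost their call, 11 gained one and 23 changed sign. Without cytokines, the count of 4 genes called in *Adam17*-KD cells was 2 in a fit to only the groups compared (*Dhx58* and *Zbp1*), 3 with limma-voom and 5 with DESeq2, with no filter and with the replicate block, and 1 to 5 when libraries were left out. With cytokines DESeq2 called 1 gene in place of 0. The difference of responses had 1 call with no filter in place of 0 (*Zbp1*, adjusted p = 0.00580, edgeR), where that fit called 18 of 29878 genes (0.0602%). The replicate block also called *Mb21d1* in the cytokine response of *Adam17*-KD cells (adjusted p = 0.0288, edgeR), where it called 9.86% of all genes. The rule for pairing was not met in that contrast, which does not decide whether the libraries were paired. Over all groups, 8 of 12 libraries correlated best with their own number. Beside *Mb21d1* there and the gains of *Tmem173* without cytokines and *Ddx58* in the averaged effect, the replicate block changed no call of the 10 genes. *Mb21d1* was not called in the response of control cells with no filter (adjusted p = 0.101) or with only the groups compared (adjusted p = 0.0721, edgeR). Over all genes the count called without cytokines was 69, against 230 with DESeq2, 223 with no filter and 130 with the replicate block. With cytokines 5 became 74, 98 and 11 under the same settings, and for the averaged effect 182 became 443, 406 and 302. Among the pathway genes called without cytokines, 2 became 7 with DESeq2, 8 with no filter and 1 with limma-voom or only the groups compared. Limma-voom called 0.354% of all genes there and the fit to only the groups compared 0.349%.

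Changes of sign were limited to values whose 95% interval included 0. In the cytokine response of *Adam17*-KD cells *Aim2* had log2 fold changes of -0.037 with limma-voom, -0.0048 with the replicate block and -0.0012 with only the groups compared, and -0.15 to 0.25 with libraries left out. With libraries left out, the log2 fold changes between *Adam17*-KD and control cells with cytokines ranged from -0.035 to 0.13 for *Ddx58*, -0.075 to 0.016 for *Mavs*, -0.085 to 0.086 for *Mb21d1*, -0.11 to 0.33 for *Eif2ak2* and -0.051 to 0.39 for *Aim2*. The response of *Aim2* in control cells ranged from -0.087 to 0.43. The difference of responses ranged from -0.18 to 0.029 for *Tmem173* and -0.41 to 0.11 for *Aim2*. The causes were not tested. Core motif matches numbered 7 in the 250 upstream bases and 15 in whole windows, where an IRF core within an ISRE core was counted as a further match. Where a group was left with 2 libraries, its spread was pooled with that of the others.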
